A study of Mus musculus with 2 samples.

Results

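Blood-rich spots were the positions of a skin section whose captured RNA held the largest share of red cell transcripts. In each of 2 sections, the spots with at least 500 UMIs (unique molecular identifiers, the counted probe molecules) were ranked by the UMIs of Hbb-bt, Hbb-bs, Hba-a1, Hba-a2 and Alas2 over all UMIs of the spot, and the first 60 were taken, with ties given to the spot with more UMIs. These genes are called the rule genes below. The members were thus chosen by measured hemoglobin and Alas2 UMIs, 60 of 1096 eligible spots in the S1pr2fl/fl section and 60 of 947 in the S1pr2fl/fl K14-Cre section, 120 of 2043 in all, which left 1036 and 887 remaining spots. Hba-a1 was not listed among the 19465 genes of the files, so 4 of the 5 rule genes carried values.

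The sections came from the skin of 1 S1pr2fl/fl mouse and 1 S1pr2fl/fl K14-Cre mouse, and both mice carried the floxed S1pr2 alleles and received 62.5 mg of 5% imiquimod (IMQ) cream daily for 7 days on depilated back skin from 8 weeks of age. IMQ is a TLR7 ligand used to induce psoriasis-like inflammation. The K14 promoter drives Cre in keratinocytes, so that the vessels, blood and deeper tissue of the knockout mouse keep S1pr2. In all, 5315351 UMIs lay in 1282 spots of the S1pr2fl/fl section, and 2845826 UMIs lay in 981 spots of the S1pr2fl/fl K14-Cre section. Genotype, mouse, section and depth cannot be told apart, and no test between the genotypes was made. S1pr2 itself had 3 UMIs in the blood-rich spots of either section, against 150 in the remaining S1pr2fl/fl spots and 51 in the remaining S1pr2fl/fl K14-Cre spots, and the part of the transcript that its probes read is not given in the sources used here. A spot is a small area that can hold several cells of different types, so fewer cells of a type and less RNA per cell cannot be told apart. The sections shared 357 spot barcodes, which on this platform name positions of the array and not cells.

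Mature red cells lack a nucleus but reticulocytes, the youngest red cells in blood, still carry globin mRNA, which is why blood in a tissue section can be read from hemoglobin transcripts. Hbb-bs and Hbb-bt encode adult beta-globin, Hba-a1 and Hba-a2 encode alpha-globin, and Alas2 encodes the erythroid enzyme that starts heme synthesis. Platelets also lack a nucleus and carry mRNA from the megakaryocyte, and a vessel cut in a section brings its endothelium and, in larger vessels, its smooth muscle into the same spot.

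The 120 bases before the annotated start of 4 rule genes are shown because the rule treats these genes as 1 signal (RefSeq, GRCm38.p6). Capitals mark 4 motifs that occur in promoters of erythroid genes. The CACCC motif reads GGGTG on the other strand. The CCAAT motif reads ATTGG, the TATAA motif reads TTATA, and the AGATAA motif reads TTATCT there.

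Hbb-bs, chr7:103827929-103828048, minus strand: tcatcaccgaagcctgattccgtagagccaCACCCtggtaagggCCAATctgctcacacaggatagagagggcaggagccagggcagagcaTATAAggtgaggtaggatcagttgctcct

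Hbb-bt, chr7:103813924-103814043, minus strand: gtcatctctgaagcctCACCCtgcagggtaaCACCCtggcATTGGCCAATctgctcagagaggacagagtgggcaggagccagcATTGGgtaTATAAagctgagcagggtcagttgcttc

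Hba-a2, chr11:32296372-32296491, plus strand: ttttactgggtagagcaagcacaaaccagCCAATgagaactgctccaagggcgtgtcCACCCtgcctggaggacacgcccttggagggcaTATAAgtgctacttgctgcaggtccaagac

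Alas2, chrX:150547297-150547416, plus strand: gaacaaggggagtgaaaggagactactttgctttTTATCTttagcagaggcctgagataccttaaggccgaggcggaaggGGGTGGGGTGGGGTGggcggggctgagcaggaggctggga

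The 3 globin windows each held the CACCC motif, the CCAAT motif and the TATAA motif, and the Alas2 window held GGGTG 3 times and the motif TTATCT once. CCAAT and ATTGG lie side by side in Hbb-bt and are counted there as separate matches. Of 32851 RefSeq promoter windows of 120 bases, 31.7% held CACCC, 21.3% CCAAT, 11.8% TATAA and 4.36% AGATAA, and a match is a description of the letters only. The upstream bases of Hba-a1 and Hba-a2 shared an unbroken run of 247 bases in windows of 250, whereas Hbb-bs and Hbb-bt were identical at 77.4% of 239 aligned bases. Transcripts of such near copies may share probes, and how the counts of Hba-a2 take in Hba-a1 was not tested.

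The rule genes, which chose the spots and are therefore described without a test, were far more abundant in the S1pr2fl/fl section. A blood-rich S1pr2fl/fl spot held between 4 and 375 rule gene UMIs, with a median of 57, which was 0.531% to 9.10% of its UMIs with a median of 1.37%. A blood-rich S1pr2fl/fl K14-Cre spot held between 1 and 77, with a median of 6, or 0.111% to 5.83% with a median of 0.195%. The remaining spots had a median of 0 in both sections, with 57.4% of S1pr2fl/fl and 81.2% of S1pr2fl/fl K14-Cre spots at 0. At least 10 rule gene UMIs were held by 55 of the 60 blood-rich S1pr2fl/fl spots and 66 of the remaining ones. Of the S1pr2fl/fl K14-Cre spots 16 of 60 did, 29 of 60 held at most 5, and 2 of the remaining spots held 10 or more. Many of the S1pr2fl/fl K14-Cre spots were thus blood-rich by their rank and by a handful of UMIs.

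**Figure D1:**
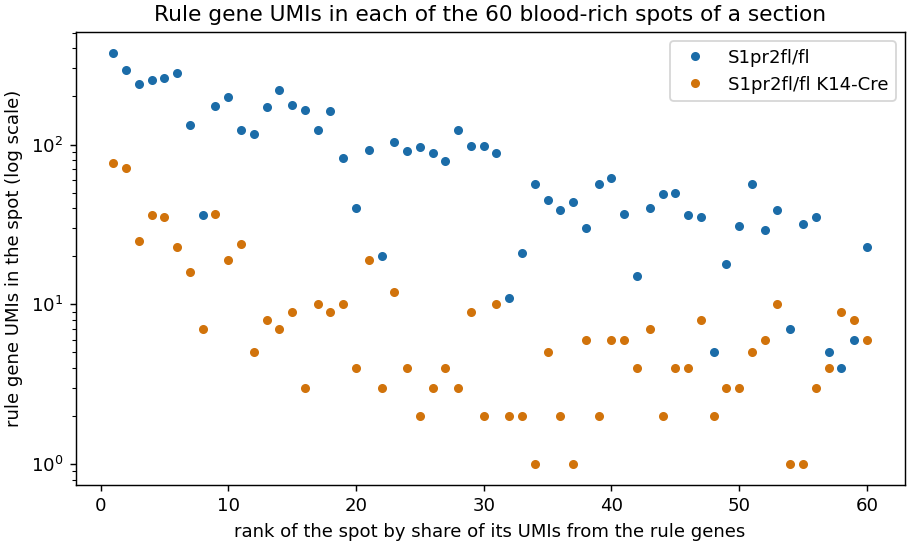
Rule gene UMIs (log scale) in each of the 60 blood-rich spots of a section against the rank of the spot by the share of its UMIs from the rule genes. The S1pr2fl/fl spots run from 375 UMIs down to 4 and the S1pr2fl/fl K14-Cre spots from 77 down to 1.

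At the limit of the rule, the 60th S1pr2fl/fl spot held 23 rule gene UMIs of 4329 (0.531%) and the 61st 7 of 1380 (0.507%). The 60th S1pr2fl/fl K14-Cre spot held 6 of 5429 (0.111%) and the 61st 6 of 5525 (0.109%). Neither section showed a gap at this point.

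Hbb-bs gave most of the signal, with 3054 UMIs in the S1pr2fl/fl and 361 in the S1pr2fl/fl K14-Cre blood-rich spots, or 55.3% and 57.4% of their rule gene UMIs. Hba-a2 followed with 2001 and 217 UMIs (36.2% and 34.5%) and Hbb-bt with 401 and 34. Alas2 had 68 and 17 UMIs and was detected in 29 and 8 of the 60 spots. The beta-globin and alpha-globin shares were thus close between the sections although the totals were 5524 and 629 UMIs. The remaining spots held 2152 and 323 rule gene UMIs, so that the 60 spots held 72.0% and 66.1% of the rule gene UMIs of all eligible spots.

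The blood-rich spots lay in patches. An adjacent blood-rich spot was present for 51 of 60 in the S1pr2fl/fl section and 38 of 60 in the S1pr2fl/fl K14-Cre section. The S1pr2fl/fl spots formed 14 connected groups, of which 4 had at least 5 spots and the largest had 20, and 9 were single spots. The S1pr2fl/fl K14-Cre spots formed 32 groups, of which 2 had at least 5 spots and the largest had 12, and 22 were single spots. Rule gene UMIs also declined with distance. The 110 S1pr2fl/fl spots next to a blood-rich spot held 1850 rule gene UMIs per 1000000 UMIs (counts per that number, CPM), against 228 in the 783 spots more than 2 array steps away. The corresponding S1pr2fl/fl K14-Cre values were 222 in 181 spots and 68.2 in 514 spots. The rule itself places the highest spots inside and lower ones outside, so these values describe where the signal lay.

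**Figure D2:**
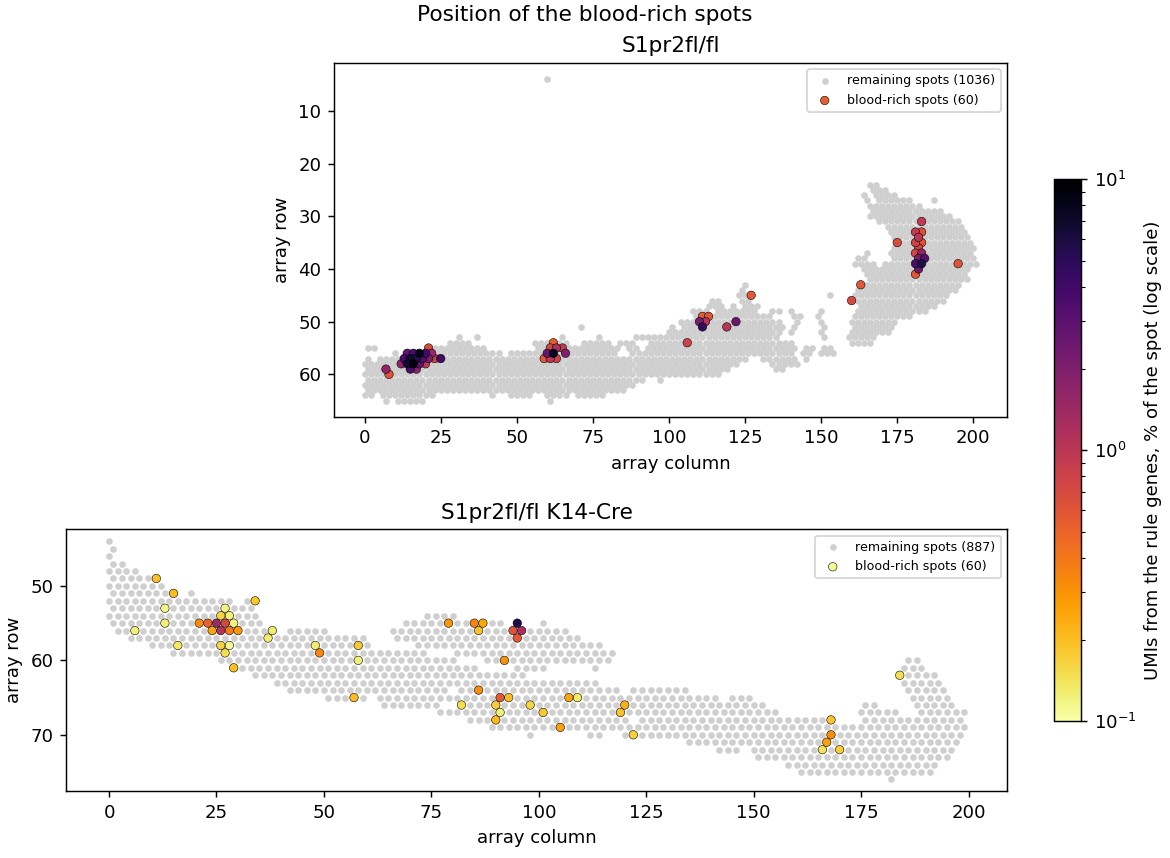
Array row and column of every eligible spot in both sections, with blood-rich spots coloured by the percent of their UMIs from the rule genes (log scale) and remaining spots in grey. The S1pr2fl/fl spots cluster in a few patches, the largest of 20 spots at columns 12 to 25, whereas 22 of the 60 S1pr2fl/fl K14-Cre spots stand alone.

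The patches lay in different tissue. The 20-spot patch of the S1pr2fl/fl section held 3.27% rule gene UMIs together with 53775 CPM of skeletal muscle genes. The 14-spot patch held 1.69%, little skeletal muscle (1852 CPM), and the highest dermal matrix (37283 CPM), Schwann cell and nerve (3241 CPM) and monocyte and macrophage (7932 CPM) levels of the 4 larger S1pr2fl/fl patches. The patches of 10 and 5 spots held 86257 and 149552 CPM of skeletal muscle genes. The 12-spot patch of the S1pr2fl/fl K14-Cre section held 0.461% rule gene UMIs and 100468 CPM of skeletal muscle genes. It also held 16196 CPM of adipocyte genes and 3543 CPM of Schwann cell and nerve genes. The 5-spot patch of that section held only 14 rule gene UMIs (0.278%) and 72991 CPM of skeletal muscle genes. For comparison, the remaining spots held 26146 CPM of skeletal muscle genes in the S1pr2fl/fl and 82453 CPM in the S1pr2fl/fl K14-Cre section.

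The gene list levels above, and levels from here on, are CPM computed without the rule genes. Hemoglobin could thus not lower the level of other genes. A ratio is the level in the blood-rich over that in the remaining spots of the same section. Its 95% interval covers counting error only. The blood-rich spots were slightly deeper, with a median of 4690.5 against 4261.5 UMIs in the S1pr2fl/fl section and 2723 against 2369 in the S1pr2fl/fl K14-Cre section. A gene was counted as at least 2-fold higher or lower in a section where it had at least 100 UMIs. As background, 7.79% of the 8458 S1pr2fl/fl genes so tested were at least 2-fold higher and 10.6% at least 2-fold lower in blood-rich spots, and of 5753 S1pr2fl/fl K14-Cre genes 3.6% and 11.4%. With 1 section a genotype these counts have no replicate check. Both sections together were tested with edgeR on the 4 UMI sums of the blood-rich and remaining spots, with the section as a block, which asks whether a gene differed by region beyond the disagreement of the sections. It called 33 genes higher (0.317% of 10412) and 66 lower (0.634%) at an adjusted p under 0.05, and each adjusted p below is from this test with Benjamini-Hochberg adjustment. Of the genes named below as called, DESeq2 did not call Egfl7, Lrg1, Ltbp4, Aqp1, Acta2, Mbp, Cidec, Plin1 and Retn, and it gave no adjusted p for Ppbp, Myl9, Stard8 and Fetub. The median log2 difference over all genes tested was 0.02, and over the tested genes of single lists it was 1.15 for 10 Schwann cell and nerve genes, 0.98 for 13 smooth muscle genes, 0.87 for 19 endothelium genes, 0.85 for 16 adipocyte genes, 0.60 for 10 erythroid genes, 0.29 for 10 platelet genes and −1.16 for 20 epidermis genes.

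The erythroid and red cell membrane lists, without the rule genes, had higher ratios in the S1pr2fl/fl than in the S1pr2fl/fl K14-Cre section. The list of erythroid factors and late reticulocyte genes had 1328 CPM in blood-rich against 636 in remaining S1pr2fl/fl spots, a ratio of 2.09 (1.86 to 2.34), and 849 against 612 CPM in the S1pr2fl/fl K14-Cre section, a ratio of 1.39 (1.17 to 1.63). Ube2l6, a ubiquitin-conjugating enzyme abundant in reticulocytes, was the member called by the test (log2 difference 2.07, adjusted p = 2.22e-04). It had 44 UMIs in the blood-rich and 122 in the remaining S1pr2fl/fl spots and 23 and 141 in the S1pr2fl/fl K14-Cre spots. The Ube2l6 ratio was 7.15 (4.94 to 10.2) and 2.32 (1.43 to 3.63), and which cells of the spots carried Ube2l6 was not tested. Bpgm, which makes the bisphosphoglycerate of red cells, had a ratio of 2.92 (2.12 to 3.95) in the S1pr2fl/fl section and 0.903 (0.559 to 1.39) in the other.

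Other erythroid genes differed from each other. Bnip3l and Tfrc, among those with most UMIs in the list, had S1pr2fl/fl ratios of 1.31 (0.940 to 1.77) and 0.950 (0.596 to 1.44). Their S1pr2fl/fl K14-Cre ratios were 1.30 (0.709 to 2.20) and 1.32 (0.822 to 2.03). Slc25a37 and Tent5c had high ratios in the S1pr2fl/fl section and too few UMIs in the other section for a ratio to be read. Slc25a37, mitoferrin, which carries iron into mitochondria, had 33 UMIs in 20 of the 60 S1pr2fl/fl spots and 2 UMIs in 2 of the 60 S1pr2fl/fl K14-Cre spots. The Slc25a37 ratio was 4.39 (2.92 to 6.44) and 0.401 (0.0477 to 1.50). Tent5c, a poly(A) polymerase of erythroid and plasma cells, had 32 UMIs in 20 spots against 113 in the remaining S1pr2fl/fl spots, a ratio of 5.61 (3.67 to 8.37). In the S1pr2fl/fl K14-Cre section 0 of 60 blood-rich spots held a Tent5c UMI (at most 5% by the limit of 3 counts), against 3.61% of the remaining spots, so that a difference was not detectable at this depth. Slc25a37 and Tent5c were chosen after their values were seen, and neither passed the test (adjusted p = 0.508 and 0.485). The S1pr2fl/fl K14-Cre blood-rich spots held 629 rule gene UMIs in all against 5524, and the part of this in the low counts was not tested.

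The red cell membrane list followed the same order, with a ratio of 1.76 (1.52 to 2.02) and 1.10 (0.944 to 1.28). Its called gene was Aqp1, a water channel of red cells that endothelium also carries (log2 difference 1.17, adjusted p = 0.0163). Slc4a1, the band 3 anion exchanger and a defining membrane gene, was close to absent, with 1 UMI in the blood-rich and 17 in the remaining S1pr2fl/fl spots. Ank1, an ankyrin that muscle expresses too, stood at 1.58 (1.13 to 2.16) in the S1pr2fl/fl and 0.617 (0.424 to 0.870) in the S1pr2fl/fl K14-Cre section. Without Ank1, its most abundant gene over both sections together, the membrane list had ratios of 1.81 (1.53 to 2.12) and 1.33 (1.12 to 1.56). Heme synthesis genes other than Alas2 had ratios of 1.21 and 0.912, and the other globin genes had 4 and 9 UMIs in the blood-rich spots of the sections. Iron and heme handling genes had ratios of 1.88 (1.79 to 1.96) and 1.29 (1.20 to 1.38). Hp, the haptoglobin that binds free hemoglobin and that fat also makes, was called higher (log2 difference 1.21, adjusted p = 0.0140) with 351 against 1985 UMIs and 108 against 1056 UMIs. Cd163, the macrophage receptor for haptoglobin and hemoglobin, had ratios of 2.01 (1.58 to 2.53) and 1.66 (1.17 to 2.30) and did not pass the test (adjusted p = 0.158). Hmox1 and Slc40a1, which also handle heme and iron, had S1pr2fl/fl ratios of 0.763 (0.522 to 1.08) and 0.847 (0.270 to 2.03). Their S1pr2fl/fl K14-Cre ratios were 1.57 (1.11 to 2.18) and 1.17 (0.366 to 2.88), and neither passed the test (adjusted p = 0.977 and 0.998).

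The summed platelet list was higher in the blood-rich spots of the S1pr2fl/fl section and lower in those of the S1pr2fl/fl K14-Cre section. The 25-gene list had 1526 against 629.6 CPM, a ratio of 2.42 (2.17 to 2.69), in the former. In the latter it had 586 against 748 CPM, a ratio of 0.784 (0.640 to 0.951). The lower level was not seen in narrower lists, whose S1pr2fl/fl K14-Cre intervals include 1. Without genes of other cell types the platelet list had ratios of 2.41 (2.12 to 2.73) and 0.874 (0.699 to 1.08). Platelet granule and glycoprotein genes had 2.42 (2.09 to 2.79) and 0.935 (0.723 to 1.19). Ppbp, a chemokine of platelet granules, had 31 UMIs in 16 of the 60 blood-rich S1pr2fl/fl spots and 35 UMIs in 27 of the 1036 remaining ones, a ratio of 17.6 (10.5 to 29.3). Ppbp had 4 UMIs in 2 spots and 32 UMIs in 11 spots of the S1pr2fl/fl K14-Cre section, a ratio of 1.78 (0.457 to 5.02). Over both sections edgeR called it (log2 difference 2.84, adjusted p = 0.0125), but its 102 UMIs passed the filter of 100 only through the blood-rich S1pr2fl/fl spots, where it was high, so the call is no support, and DESeq2 called no platelet gene.

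Pf4, a platelet granule chemokine that skin macrophages also express, had 162 against 1546 UMIs and 57 against 908 UMIs. Its ratios were 2.08 (1.76 to 2.44) and 0.894 (0.672 to 1.17). Tubb1, the tubulin of the platelet rim, had 17 UMIs in 10 blood-rich S1pr2fl/fl spots against 24 in the remaining spots, a ratio of 14 (7.08 to 27.2). Its S1pr2fl/fl K14-Cre UMIs were 4, all in 1 spot, against 25, a ratio of 2.28 (0.576 to 6.6). The subunits of the von Willebrand factor receptor did not go together in these low counts. Gp9 had 8 against 30 S1pr2fl/fl UMIs, a ratio of 5.29 (2.09 to 11.8), and 4 against 34 S1pr2fl/fl K14-Cre UMIs, a ratio of 1.68 (0.432 to 4.70). Gp5 had 1 against 33, a ratio of 0.601 (0.0148 to 3.59), and 4 against 21, a ratio of 2.71 (0.677 to 8.04), and Gp1bb had 4 against 49, a ratio of 1.62 (0.424 to 4.41), and 0 against 22. Treml1, a platelet granule receptor, had 6 against 20 S1pr2fl/fl UMIs, a ratio of 5.95 (1.95 to 15.4), and 0 against 14 S1pr2fl/fl K14-Cre UMIs. Itga2b, the integrin chain of platelets, had 6 against 47 in the S1pr2fl/fl section and 0 against 24 in the S1pr2fl/fl K14-Cre section. Tubb1, Treml1 and the receptor subunits were named after their values were seen. For scale, the 1226 odorant and pheromone receptor genes held 784 against 13505 S1pr2fl/fl UMIs and 1361 against 19351 S1pr2fl/fl K14-Cre UMIs. Skin is not known to use those genes in number, and the part of background in low counts such as these was not tested. The intervals of Ppbp, Tubb1, Gp9 and Gp5 in the S1pr2fl/fl K14-Cre section thus include 1 and values well above it. Without Pf4, its most abundant gene, the full platelet list had ratios of 2.76 (2.39 to 3.17) and 0.690 (0.512 to 0.912). Its S1pr2fl/fl K14-Cre interval thus stayed below 1, unlike those of the narrower platelet lists above.

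**Figure D3:**
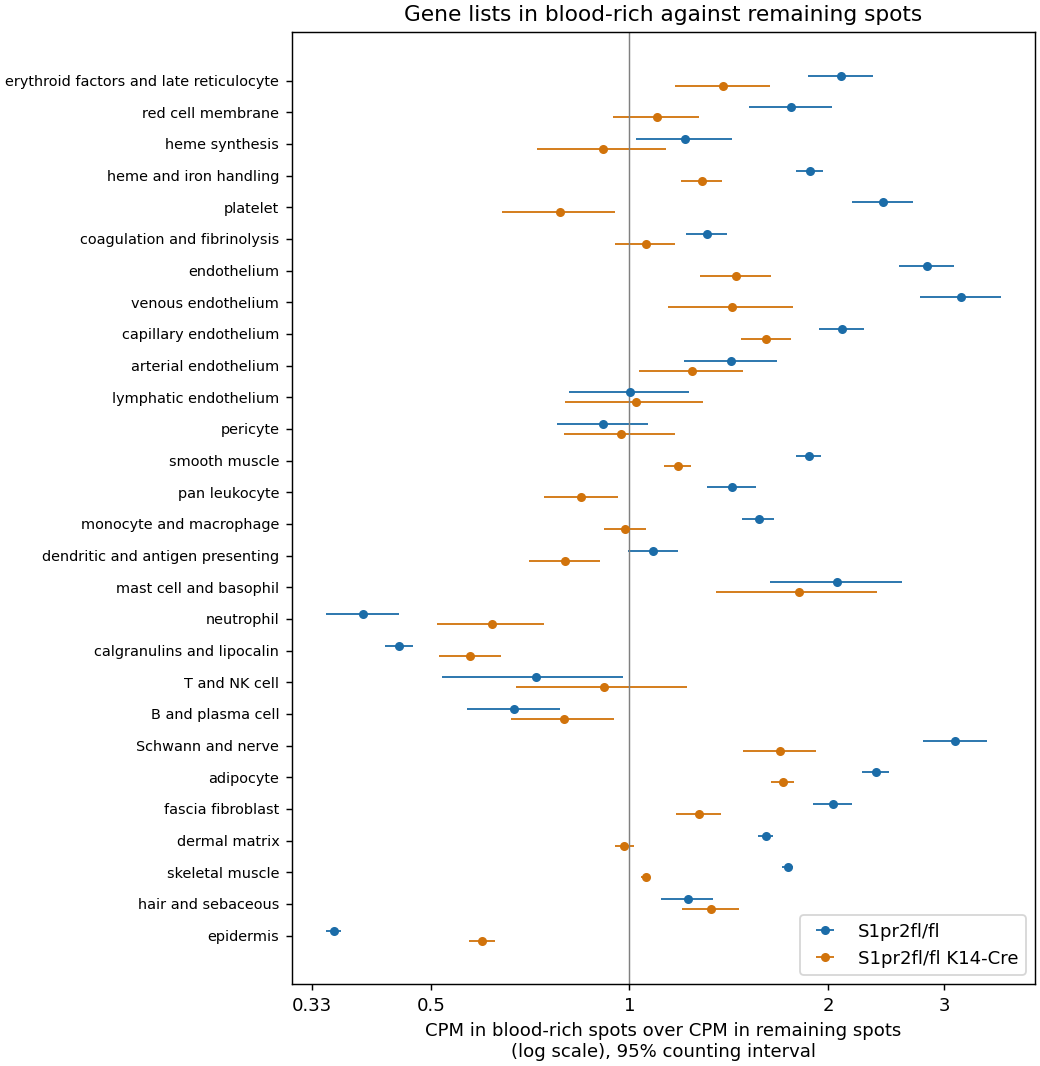
Ratio of the CPM of each gene list in blood-rich over remaining spots (log scale) with its 95% counting interval, for the S1pr2fl/fl and the S1pr2fl/fl K14-Cre section. In both sections the endothelium, venous, capillary, arterial, Schwann cell and adipocyte lists lie above 1 and the epidermis and calgranulin lists below 1. The lymphatic endothelium list lies at 1.00 and 1.02, and the platelet list at 2.42 and 0.784.

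The endothelium list had 1957 against 694 CPM in the S1pr2fl/fl section, a ratio of 2.82 (2.56 to 3.10), and 1538 against 1059.7 CPM in the S1pr2fl/fl K14-Cre section, a ratio of 1.45 (1.28 to 1.64). Of its 24 genes, 15 had enough S1pr2fl/fl UMIs and 11 of these were at least 2-fold higher. Of 11 such S1pr2fl/fl K14-Cre genes, 3 were. Vwf, which encodes the von Willebrand factor of endothelium and platelets, had the smallest adjusted p of all genes tested (log2 difference 2.58, adjusted p = 8.14e-09). It had 64 UMIs in 28 of the 60 blood-rich S1pr2fl/fl spots against 142 UMIs in 100 of the remaining spots, a ratio of 8.93 (6.54 to 12.1). The S1pr2fl/fl K14-Cre section had 31 Vwf UMIs in 14 spots against 116 UMIs in 65 spots, a ratio of 3.81 (2.47 to 5.70). Against only those remaining spots within 2 array steps of a blood-rich spot, the log2 difference of Vwf was 2.03 (adjusted p = 4.81e-06).

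Egfl7, a matrix protein secreted by endothelium, was called as well (log2 difference 1.45, adjusted p = 0.0104), with ratios of 3.47 (2.57 to 4.60) and 2.02 (1.26 to 3.11). Pecam1, a junction protein of endothelium that platelets also carry, had 29 against 167 UMIs, a ratio of 3.44 (2.24 to 5.13), in the S1pr2fl/fl section. Its S1pr2fl/fl K14-Cre counts were 2 against 60 UMIs, a ratio of 0.475 (0.0562 to 1.79). Cdh5, the endothelial cadherin, gave 3.05 (1.90 to 4.71) and 0.936 (0.419 to 1.83). The higher level of the whole list in the S1pr2fl/fl K14-Cre section thus came from part of its genes, and the intervals of Pecam1 and Cdh5, both defining markers, include 1 there.

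Among vessel types, venous genes had ratios of 3.18 (2.75 to 3.66) and 1.43 (1.14 to 1.77), capillary genes 2.10 (1.93 to 2.27) and 1.61 (1.48 to 1.75), and arterial genes 1.43 (1.21 to 1.68) and 1.24 (1.03 to 1.49). Lymphatic genes stood at 1.00 (0.808 to 1.23) and 1.02 (0.799 to 1.29), sums that hold Pdpn (38 against 739 and 25 against 388 UMIs) and Pard6g (6 against 520, a ratio of 0.229, and 10 against 95), a polarity protein. Lyve1, a defining marker of lymphatics, had 9 against 36 UMIs, a ratio of 4.96 (2.10 to 10.5), in the S1pr2fl/fl section and 3 against 40, a ratio of 1.07 (0.211 to 3.35), in the other. The other defining marker, Prox1, had ratios of 2.12 (0.413 to 6.88) and 1.00 (0.263 to 2.70). Lrg1, a venous and inflammation-induced glycoprotein, was called (log2 difference 1.11, adjusted p = 0.0354), as was Ltbp4, a protein of elastic matrix in the arterial list (1.29, adjusted p = 0.0129). Fabp4, called from the capillary list (1.20, adjusted p = 0.0163), is also a major adipocyte protein. Ackr1, the chemokine receptor that red cells and venules share, had 16 against 122 UMIs in the S1pr2fl/fl section and 0 against 73 in the S1pr2fl/fl K14-Cre section. Its ratio was 2.60 (1.44 to 4.39) in the former and had an upper bound of 0.738 in the latter. S1pr1, the endothelial receptor for sphingosine 1-phosphate, had ratios of 2.64 (1.52 to 4.34) and 1.80 (0.833 to 3.49) and did not pass the test (adjusted p = 0.452).

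Over both sections edgeR called 3 of 13 contractile genes higher, of which DESeq2 called 1 (Tagln). Of the 10 pericyte genes tested neither tool called any. At an unadjusted p under 0.05 with edgeR 1 was lower, against 490 of all 10412 genes tested. Tagln, an actin-binding protein of smooth muscle, had 63 against 457 UMIs and 78 against 426 UMIs, with ratios of 2.73 (2.07 to 3.56) and 2.61 (2.02 to 3.33) (log2 difference 1.42, adjusted p = 1.47e-03). Acta2, smooth muscle actin, had ratios of 2.91 (2.17 to 3.83) and 2.60 (1.63 to 4.0) (1.47, adjusted p = 7.41e-03), and Myl9, its myosin light chain, was the remaining gene called (1.39, adjusted p = 0.0428). Against only the remaining spots within 2 array steps, the log2 differences of Tagln and Acta2 were 0.66 and 0.61 and neither was called by edgeR (adjusted p = 0.311 and 0.683). Myh11, the smooth muscle myosin, stood at 3.21 (2.23 to 4.51) and 1.11 (0.433 to 2.38). The whole smooth muscle list had ratios of 1.87 and 1.18, and its most abundant genes, Tpm2 and Des, are also made by skeletal muscle. The pericyte list had ratios of 0.913 (0.777 to 1.07) and 0.970 (0.795 to 1.17). These sums were dominated by Ndufa4l2, a mitochondrial protein induced by low oxygen, with 59 against 2091 and 24 against 692 UMIs and ratios of 0.559 and 0.494. Without Ndufa4l2 the list had ratios of 1.40 (1.14 to 1.70) and 1.31 (1.04 to 1.62), and Rgs5, its defining marker, had 1.79 (1.07 to 2.83) and 1.63 (0.988 to 2.57). Of the coagulation and fibrinolysis genes, F13a1, which cross-links fibrin and which macrophages and platelets carry, had ratios of 2.30 (1.99 to 2.66) and 1.17 (0.886 to 1.53). The whole list had 1.31 (1.22 to 1.41) and 1.06 (0.951 to 1.17). Without Anxa2, its most abundant gene, it had 1.73 (1.58 to 1.88) and 1.19 (1.05 to 1.35).

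**Figure D4:**
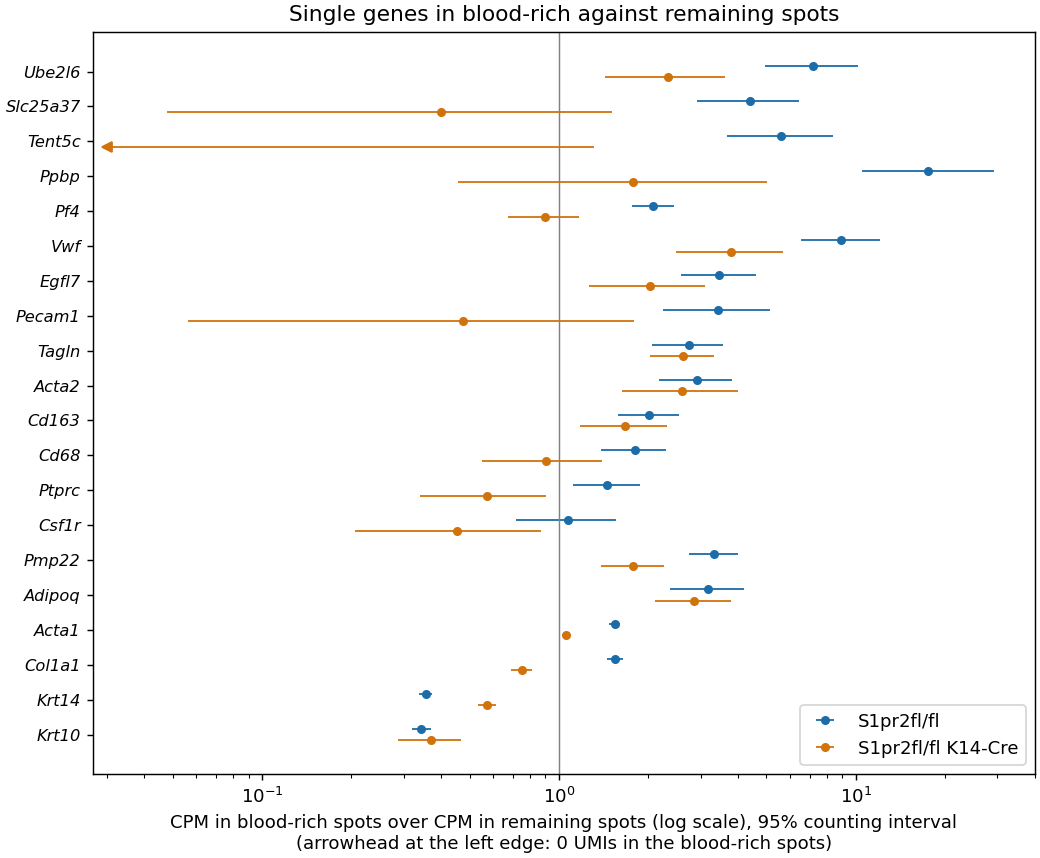
Ratio of the CPM of single genes in blood-rich over remaining spots (log scale) with its 95% counting interval in both sections. Vwf, Egfl7, Tagln, Acta2 and Adipoq lie above 1 in both, Krt14 and Krt10 below 1 in both, and Ppbp, Pecam1 and Ptprc differ in place between the sections.

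Leukocyte genes did not follow the red cell genes in a uniform way. The pan leukocyte list had 2332 against 1632 CPM, a ratio of 1.43 (1.31 to 1.55), in the S1pr2fl/fl section and 1382 against 1634 CPM, a ratio of 0.846 (0.743 to 0.959), in the S1pr2fl/fl K14-Cre section. Ptprc, the common leukocyte antigen CD45, had 67 against 912 UMIs, a ratio of 1.46 (1.12 to 1.87), and 19 against 474 UMIs, a ratio of 0.571 (0.341 to 0.902). Monocyte and macrophage genes had 5337 against 3401 CPM (ratio 1.57, 1.48 to 1.66) and 4150.4 against 4218 CPM (0.984, 0.914 to 1.06). Within this list Cd68, a lysosomal macrophage marker, had ratios of 1.80 and 0.901, C1qa, a complement component, 1.63 and 1.08, and Csf1r, the macrophage growth factor receptor, 1.08 and 0.453. None of the 19 macrophage genes and none of the 15 pan leukocyte genes tested with edgeR passed over both sections, and DESeq2 called none. At an unadjusted p under 0.05 with edgeR 2 and 1 of them were higher and none lower, against 440 higher and 490 lower of all 10412 genes tested.

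The neutrophil list had ratios of 0.394 (0.346 to 0.447) and 0.618 (0.511 to 0.741), in sums that a single gene dominated. Stfa3, a stefin that inflamed keratinocytes may also make, had 162 against 11189 UMIs and 66 against 2084 UMIs and was called lower (log2 difference −1.50, adjusted p = 2.43e-03). Without Stfa3 the direction turned, and the list had 85 against 1228 UMIs, a ratio of 1.37 (1.09 to 1.71), and 56 against 727 UMIs, a ratio of 1.10 (0.821 to 1.44). S100a8, a calgranulin of neutrophils and inflamed epidermis, was called lower too (−1.40, adjusted p = 0.0163). Csf3r, the G-CSF receptor, had 22 against 252 UMIs and 11 against 58 UMIs, with ratios of 1.73 (1.07 to 2.68) and 2.70 (1.28 to 5.20) (adjusted p = 0.444). Il1r2, a decoy receptor for interleukin 1, had ratios of 1.03 and 1.88. At least 2-fold lower in the S1pr2fl/fl section were 3 of the 5 members with enough UMIs. These were Stfa3 and, named after their values were seen, Cxcr2 (2 against 139 UMIs, 0.285, 0.0342 to 1.05) and Padi4 (3 against 148 UMIs, 0.402, 0.0819 to 1.20). Ly6g, a defining marker, had 3 against 13 S1pr2fl/fl UMIs, a ratio of 4.57 (0.836 to 16.6), and 0 against 20 S1pr2fl/fl K14-Cre UMIs. T and NK cell genes had ratios of 0.722 (0.520 to 0.979) and 0.916 (0.672 to 1.22), and Cd3e had 2 and 9 UMIs in the blood-rich spots. The B and plasma cell list stood at 0.669 and 0.794, and without its most abundant gene, Sdc1, which keratinocytes also make, at 0.960 (0.758 to 1.20) and 1.09 (0.853 to 1.37). Mast cell genes were the leukocyte list with the highest ratio in both sections, at 2.07 (1.63 to 2.59) and 1.81 (1.35 to 2.37). Cma1, the mast cell chymase, had 31 UMIs in 14 blood-rich S1pr2fl/fl spots and 12 UMIs in 6 S1pr2fl/fl K14-Cre spots, with ratios of 2.33 and 2.11 (adjusted p = 0.238).

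Of the tissue genes, those of nerve and fat were high beside the blood. Schwann cell and nerve genes had 1431 against 459 CPM, a ratio of 3.12 (2.78 to 3.49), and 1457 against 862 CPM, a ratio of 1.69 (1.49 to 1.92). The test called Pmp22 (log2 difference 1.30, adjusted p = 3.90e-03) and Mbp (1.11, adjusted p = 0.0489), which encode myelin proteins, higher over both sections. Pmp22 had 131 against 780 UMIs, a ratio of 3.33 (2.75 to 4.01), in the S1pr2fl/fl section and 76 against 608 UMIs, a ratio of 1.78 (1.38 to 2.26), in the S1pr2fl/fl K14-Cre section. The nerve signal sat in few patches. Without the 12-spot patch the S1pr2fl/fl K14-Cre ratio of the list was 0.666, and without the 20-spot patch the S1pr2fl/fl ratio was 4.03.

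Adipocyte genes had 7871 against 3334 CPM, a ratio of 2.36 (2.25 to 2.47), and 14258 against 8351 CPM, a ratio of 1.71 (1.64 to 1.78). The test called 6 of the 16 genes tested, which were the secreted factors Adipoq, Cfd and Retn, the lipid droplet proteins Cidec and Plin1 and the fatty acid carrier Fabp4. Adipoq, the hormone adiponectin, had 58 against 363 UMIs and 56 against 280 UMIs, with ratios of 3.17 (2.36 to 4.19) and 2.85 (2.10 to 3.81) (log2 difference 1.59, adjusted p = 4.35e-04). Fascia fibroblast genes had ratios of 2.03 (1.90 to 2.18) and 1.27 (1.18 to 1.38) and dermal matrix genes 1.61 (1.57 to 1.65) and 0.982 (0.950 to 1.01). Col1a1 and Col1a2, the chains of type I collagen, had ratios of 1.55 and 1.54 in the S1pr2fl/fl and 0.750 and 0.899 in the S1pr2fl/fl K14-Cre section. Skeletal muscle genes had 45417 against 26146 CPM (1.74, 1.70 to 1.77) and 87303 against 82453 CPM (1.06, 1.04 to 1.08). The latter direction turned against depth-matched spots (0.949, 0.932 to 0.965) and against spots within 2 array steps (0.949, 0.934 to 0.965). No fascia, dermal matrix or skeletal muscle gene passed edgeR's test over both sections, and DESeq2 called none. At an unadjusted p under 0.05 with edgeR, 6 of 11, 3 of 14 and 1 of 19 were higher, against 440 of all 10412 genes tested.

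Keratinocyte genes were lower in the blood-rich than in the remaining spots. The epidermis list had 23090.2 against 64834 CPM, a ratio of 0.356 (0.347 to 0.365), and 11037 against 18474 CPM, a ratio of 0.597 (0.571 to 0.624). Of its 20 genes 9 were called lower and none higher. Krt10, a keratin of the suprabasal layers, had ratios of 0.344 (0.319 to 0.371) and 0.370 (0.287 to 0.469) (log2 difference −1.49, adjusted p = 0.0140). Krt14, the basal keratin whose promoter drives the Cre, had a median of 20.5 UMIs in the blood-rich S1pr2fl/fl spots and 3 in the S1pr2fl/fl K14-Cre spots, with ratios of 0.355 (0.337 to 0.374) and 0.573 (0.533 to 0.615), and did not pass (adjusted p = 0.240). None of the 60 blood-rich S1pr2fl/fl spots was in the top 25% of eligible spots for epidermis genes, which allows a share of up to 5% at 3 counts. Of the S1pr2fl/fl K14-Cre spots 13.3% were. For endothelium genes 75.0% of S1pr2fl/fl and 36.7% of S1pr2fl/fl K14-Cre blood-rich spots were in that top 25%, and for adipocyte genes 50.0% and 41.7%, where 25% is the share of all eligible spots.

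Across all genes, 36 of the 5651 genes with enough UMIs in each section were at least 2-fold higher in the blood-rich spots of both (0.637%), 116 were at least 2-fold lower in both (2.05%), and 37 were past 2-fold in opposite directions. The genes with the highest ratio in the section where it was nearer 1 were Vwf, Adipoq, Stard8, Aoc3 and Tagln. Stard8, a GTPase-activating protein, had ratios of 3.18 (2.13 to 4.60) and 2.67 (1.65 to 4.15), and Aoc3, the vascular adhesion protein of endothelium, smooth muscle and fat, 3.59 (2.25 to 5.53) and 2.67 (1.86 to 3.74). The test called both (adjusted p = 0.0140 and 4.99e-03). The lowest were Tmprss11g, Actr5, Ppil4, Rpia and Fetub, of which only Fetub was called (log2 difference −2.48, adjusted p = 0.0140), each with at most 4 UMIs in the blood-rich spots of a section. Of the 66 genes called lower, 9 belonged to the epidermis list and the others included further genes that keratinocytes express. Hrnr, encoding hornerin, had 64 against 4605 UMIs and 1 against 149 UMIs (−2.02, adjusted p = 2.22e-04). Alox8, a lipoxygenase of inflamed epidermis, had 28 against 1892 UMIs and 9 against 694 UMIs (−2.02, adjusted p = 3.02e-05).

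Within the blood-rich S1pr2fl/fl spots, several lists had lower levels at lower hemoglobin rank, and 13 of the first 20 spots lay in the largest connected group. Spots ranked 1 to 20, 21 to 40 and 41 to 60 had 2249, 1422 and 980 CPM of platelet genes, against 629.6 in the remaining spots. Erythroid genes had 1697, 1337 and 980 CPM, and the Slc25a37 UMIs were 20, 10 and 3. Epidermis genes had the same order, with 30870.2, 21747 and 17466 CPM, all below the 64834 of the remaining spots, as had the neutrophil list with 1249.5, 1039.6 and 653 CPM. Endothelial genes had 2091, 1878 and 1923 CPM against 694, so that each tier lay at about the same level. The order was the reverse for dermal matrix genes, with 21097.5, 24887.5 and 26974 CPM, and for macrophage genes, with 4735, 5442 and 5770 CPM. It was also the reverse for fascia fibroblast genes (3170, 3278 and 4451 CPM) and Schwann cell and nerve genes (842, 1655 and 1718 CPM). The S1pr2fl/fl K14-Cre platelet genes had 538, 486 and 692 CPM against 748. The endothelial genes there had 2246 CPM in the first 20 spots and 1058 and 1221 in the next tiers, against 1059.7 in the remaining spots. The first 20 spots therefore carried the endothelial ratio of this section, and with only the spots of at least 10 rule gene UMIs, an alternative chosen after the data were seen, it was 2.16. The same 20 spots had the most adipocyte signal, with 25133 CPM against 12691 and 5670.5 in the next tiers.

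**Figure D5:**
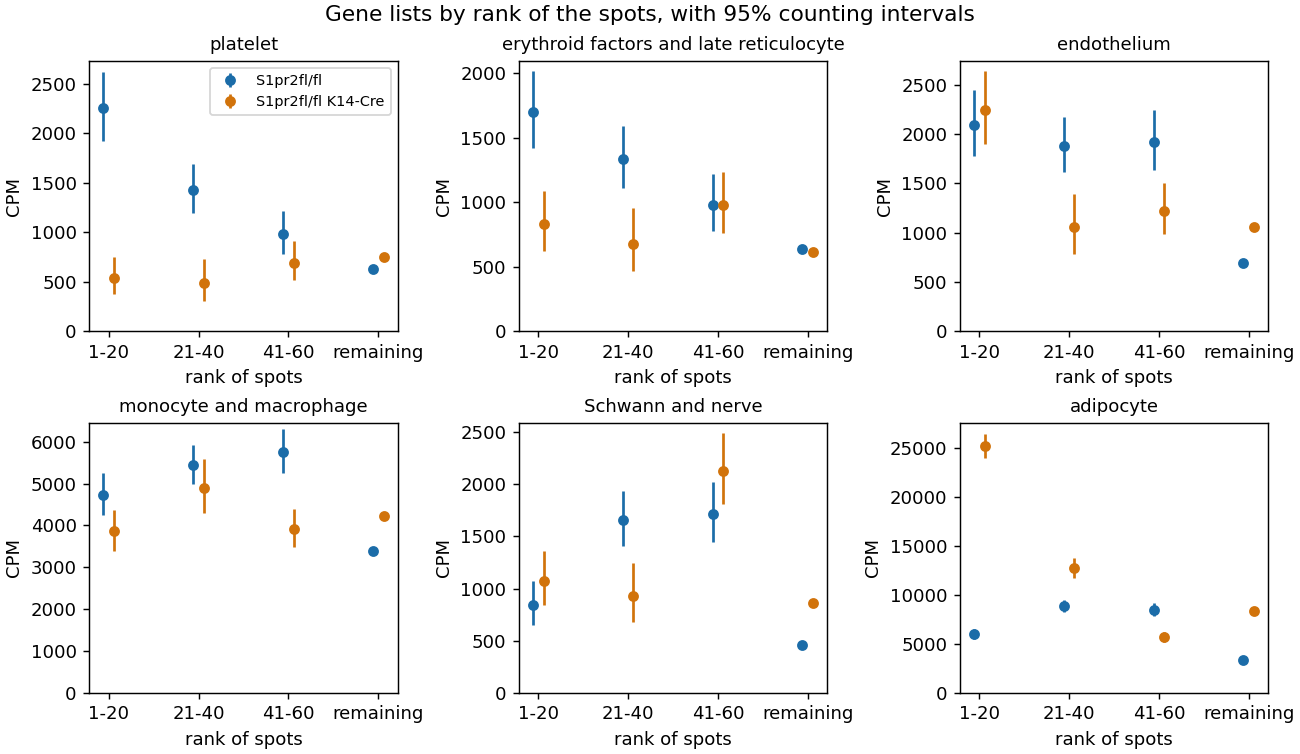
CPM of 6 gene lists in blood-rich spots ranked 1 to 20, 21 to 40 and 41 to 60 and in the remaining spots of each section, with exact Poisson 95% counting intervals. In the S1pr2fl/fl section the platelet list drops from 2249 to 980 CPM over the tiers while the endothelium list stays between 1878 and 2091, and in the S1pr2fl/fl K14-Cre section the first tier alone stands out for endothelium.

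The test over both sections had 1 residual degree of freedom, and its calls changed with the spots taken. Without the largest connected group of each section, 2 genes were called higher and 6 lower. Vwf stayed called (log2 difference 2.38, adjusted p = 8.66e-04), while Ube2l6 (1.74, adjusted p = 0.267), Tagln (1.34, 0.230), Acta2 (1.18, 0.556) and Adipoq (1.23, 0.444) kept their direction and were not called. At least 2-fold higher genes then numbered 844 in the S1pr2fl/fl and 293 in the S1pr2fl/fl K14-Cre section, against 659 and 207 with all members. When spots were ranked by rule gene UMIs in place of their share, 1 gene was called higher and 7 lower. None of the 33 genes called higher before was called higher then, while the 7 lower were among the 66. Vwf then had a log2 difference of 2.13 (adjusted p = 0.0897).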

How the data were processed

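Gene expression was measured with Visium CytAssist for FFPE tissue in 1 skin section (10 µm) of each genotype, on an 11 mm capture area. For every spot over tissue the deposited files hold raw UMI counts by gene, not normalized, with the spot's array position. The file header names Space Ranger 3.0.0 and the submitters' processing notes mm10, while the probe set is not given in the sources used here. The files held more tissue spots than the study's methods state. The members and gene lists were chosen with earlier results of these data known.

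UMIs were summed over blood-rich and remaining spots in Python 3.11.15 (numpy 2.4.6, scipy 1.17.1). CPM have exact Poisson and ratios conditional binomial 95% intervals, which cover counting error only, and spots are not replicates. Genes with at least 100 UMIs in the 4 sums were tested in R 4.3.3 with edgeR 4.0.16 (quasi-likelihood, section as block, library sizes without the rule genes), which was tested on simulated data. Blood-rich and remaining spots are paired within a section, each section is from another mouse, and a permutation over 2 sections cannot go below p = 0.5. No doublet caller was run and no cell type makeup was estimated. DESeq2 1.42.0, TMM, other spot and gene filters, other comparison spots, thinning to 500 UMIs and the fit without the block were alternatives. Dropping spots under 10 rule gene UMIs or the largest connected group, or the most abundant gene of a list, were alternatives chosen after seeing the data.

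Named genes were the rule genes, the genes with most UMIs of each list, defining markers and the 5 highest and 5 lowest ratios shared by both sections. Of the other genes called by the test, Ube2l6, Egfl7, Lrg1, Myl9, Retn, Cidec, Plin1, Krt10, Hrnr and Alox8 were named or described after their values were seen where the rule did not name them. Also named after their values were seen were Slc25a37, Tent5c, Tubb1, Gp9, Gp5, Gp1bb, Treml1, Cxcr2, Padi4, Cd163, Hmox1, Slc40a1 and S1pr1. Genes carry the files' symbols, and promoter sequences are RefSeq's for GRCm38.p6. The other experiments of the study were not analysed here, and some genes are not reported here.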

Additional observations from a re-analysis of the deposited data

Results flagged for a closer look

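Some results stood on opposite sides of 1 in the sections, with counting intervals that do not reach 1 in either. The difference itself was not tested, since each genotype is 1 section. The platelet list had a ratio of 2.42 in the S1pr2fl/fl and 0.784 in the S1pr2fl/fl K14-Cre section, where the interval reached 1 under 5 alternatives. It also reached 1 there without genes of other cell types (0.874, 0.699 to 1.08) and for granule and glycoprotein genes alone (0.935, 0.723 to 1.19). The pan leukocyte list had 1.43 and 0.846, and Ptprc, the CD45 gene, 1.46 and 0.571. Ank1, an ankyrin of red cells and muscle, had 1.58 and 0.617. Ackr1, a chemokine receptor of venules and red cells, had 2.60 and 0, the latter from 0 UMIs in the blood-rich spots. Col1a1 had 1.55 and 0.750 and Col1a2 1.54 and 0.899. The blood-rich S1pr2fl/fl K14-Cre spots held fewer rule gene UMIs (median 6 against 57), and the part of this in these results was not tested.

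Rule gene UMIs were also present in spots too shallow to be eligible. The 186 S1pr2fl/fl spots under 500 UMIs held 67 of them, and the 34 such S1pr2fl/fl K14-Cre spots held 3.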

How the results depend on the processing

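The platelet ratio of the S1pr2fl/fl section stayed above 1 under every alternative run, at 3.05 with 30 spots a section, 1.97 with 120, 1.85 against spots within 2 array steps, 1.70 after thinning each spot to 500 UMIs, 2.13 as a mean over spots and 1.98 without the largest connected group. That of the S1pr2fl/fl K14-Cre section stayed below 1, at 0.982 (0.864 to 1.11) with 120 spots and 0.633 (0.342 to 1.08) after thinning, and its interval also reached 1 with 30 spots (0.567 to 1.00), when ranked by UMIs (0.796 to 1.05) and with at least 10 rule gene UMIs a spot (0.541 to 1.02). The endothelium ratio was 2.49 with 120 spots, 2.43 against depth-matched spots, 1.86 within 2 steps, 3.11 after thinning and 2.52 as a mean over spots in the S1pr2fl/fl section. In the S1pr2fl/fl K14-Cre section it was 1.87 with 30 spots, 1.23 when ranked by rule gene UMIs and 1.27 against depth-matched spots. There it was also 2.16 with only spots of at least 10 rule gene UMIs, and 1.13 after thinning, where the interval included 1 (0.793 to 1.56).

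Some list ratios with a main interval that excluded 1 crossed it. After thinning, the S1pr2fl/fl arterial (0.838), hair and sebaceous (0.924) and stress lists (1.12) and the S1pr2fl/fl K14-Cre neutrophil (1.20), dendritic (1.12) and stress lists (1.06) did. The S1pr2fl/fl hair list also did with 30 spots (0.954) and within 2 steps (0.961). The S1pr2fl/fl K14-Cre skeletal muscle list did against depth-matched spots (0.949), within 2 steps (0.949) and without the largest connected group (0.991), its developmental muscle list with 120 spots (1.04) and when ranked by UMIs (2.60), and its Schwann cell list without the largest connected group (0.666). Without its most abundant gene, an alternative chosen after seeing the data, the platelet list stood at 2.76 in the S1pr2fl/fl section, and the neutrophil list (1.37 and 1.10) and the S1pr2fl/fl K14-Cre B and plasma cell list (1.09) crossed 1. Of lists whose main interval included 1, pericyte (1.40 and 1.31) and angiogenesis (0.990 and 0.792) crossed 1 in both sections under this alternative. So did the S1pr2fl/fl lymphatic list (0.991) and the S1pr2fl/fl K14-Cre endothelial activation (0.801) and heme synthesis lists (1.003). Mbp had a log2 difference of −0.018 with 30 spots a section. The causes were not tested.

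Counts of genes past 2-fold varied with the setting. At least 2-fold higher genes in the S1pr2fl/fl section numbered 66 against depth-matched spots, 26 within 2 steps, 52 after thinning, 1481 with at least 30 UMIs a gene, 152 with at least 300 and 3046 with no filter. Lower genes numbered 211, 81, 167, 1727, 391 and 5437 in the same order and 1401 with 30 spots. In the S1pr2fl/fl K14-Cre section higher genes numbered 455 with 30 and 76 with 120 spots, 121 ranked by UMIs, 13 depth-matched, 64 within 2 steps, 9 thinned, 563 with at least 10 rule gene UMIs, 1215, 20 and 2486 under the same gene filters. Lower genes numbered 1331, 315, 422, 54, 195, 61, 1406, 2934, 73 and 6016. With 120 spots, 79.2% of its spots had an adjacent blood-rich spot.

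Test calls were 33 higher and 66 lower. They were 139 and 233 with 120 spots, 48 and 102 with at least 1000 UMIs a spot, 1 and 7 when ranked by rule gene UMIs, 10 and 27 with rule genes in the library sizes, 14 and 17 within 2 steps, 1 and 2 after thinning (2018 genes tested), and 2 and 6 without the largest connected group, of which 2 and 5 were among the 33 and 66. DESeq2 called 16 and 38, with 8074 adjusted p missing. Without the replicate block, edgeR called 0 and 0, with 188 higher and 191 lower at an unadjusted p under 0.05. Pairing by section comes from the design, since both regions lie in 1 section. Vwf was called under 12 of the 14 alternatives in which it was tested. The exceptions were the fit without the block and the ranking by UMIs (edgeR, log2 differences 2.55 and 2.13, adjusted p = 0.997 and 0.0897).

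Depth limits single genes: a gene with under 10 UMIs in 60 spots gives a wide interval, and the S1pr2fl/fl K14-Cre section had fewer UMIs. The sections shared 1 residual degree of freedom, so the adjusted p rest on dispersion moderated across genes.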

Other observations

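Endothelial activation genes had ratios of 1.86 (1.44 to 2.37) in the S1pr2fl/fl and 1.17 (0.799 to 1.66) in the S1pr2fl/fl K14-Cre section. Selplg, the most abundant of them, gave 28 of 73 and 20 of 34 UMIs in the blood-rich spots. Without Selplg the ratios were 2.11 (1.52 to 2.88) and 0.801 (0.432 to 1.37). Angiogenesis genes had ratios of 1.15 (1.00 to 1.31) and 1.03 (0.862 to 1.23) in the same order, and 0.990 (0.827 to 1.18) and 0.792 (0.621 to 0.997) without Epas1, the most abundant gene over both sections together. Among them Hif1a, a hypoxia factor, was below 1 in both sections, at 0.503 (0.345 to 0.710) and 0.622 (0.376 to 0.972). The stress and immediate early list, led by Mt1, a metallothionein, had 0.924 (0.862 to 0.990) and 0.891 (0.813 to 0.976). Dendritic and antigen-presenting genes had 1.09 (0.996 to 1.18) and 0.799 (0.704 to 0.902), with Cd74, the invariant chain of MHC class II, as the most abundant. Hair and sebaceous genes, led by the lipid desaturase Scd1, stood at 1.22 (1.12 to 1.34) and 1.33 (1.20 to 1.47). Developmental muscle genes had 22 and 81 UMIs in the blood-rich spots and ratios of 1.57 (0.967 to 2.42) and 0.648 (0.512 to 0.810). The 1226 odorant and pheromone receptor genes, which skin is not known to use in number, had 3099 against 2693 CPM (1.15, 1.07 to 1.24) and 7317 against 7303 CPM (1.00, 0.948 to 1.06).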
